A study of Homo sapiens with 6 samples.

Results

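Genes of the matrix metalloproteinase (MMP), ADAM, ADAMTS and ADAMTS-like (ADAMTSL) families and of the TIMPs, inhibitors of these enzymes, were followed in SUM159 cells grown in three-dimensional matrigel culture after stable knockdown of TβRIII, the type III TGF-β receptor encoded by TGFBR3. Members were all genes measured by a transcript cluster with 1 gene symbol whose symbol starts with MMP and a digit, with ADAM, or with TIMP and a digit, which gave 72 of the 18276 genes on the arrays. They are 22 MMP genes, 23 ADAM genes (3 of them pseudogenes), 17 ADAMTS genes, 5 ADAMTSL genes, 4 TIMP genes and the antisense transcript ADAMTSL4-AS1. A transcript cluster is the group of probes that the array assigns to 1 gene or transcript, and each gene was read from its brightest cluster by mean signal over the 6 arrays. MMP16, TIMP3 and ADAMTSL1 have 2 clusters each. Another 2 clusters that carry several symbols, for MMP23A with MMP23B and for ADAM21 with ADAM21P1, were not counted as members.

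The human breast cancer line SUM159 served in the study as a model of the mesenchymal stem-like subtype of triple negative breast cancer. The 3 TβRIII-KD samples came from SUM159 cells that stably carry a lentiviral short hairpin RNA against TGFBR3 and were selected with puromycin, so 1 hairpin represents the knockdown. The 3 control samples came from SUM159 cells labelled only as control, and the vector that they carried is not given in the sources used here. Both groups are labelled as day 6 of three-dimensional culture without further treatment. Total RNA was read on Affymetrix Human Gene arrays, which follow each gene with probes spread along the transcript, and every level below is a log2 RMA signal on which a step of 1 is a doubling. Every fold change below is a difference on this log2 scale, TβRIII-KD minus control, except where a value is followed by -fold. The comparison asks which of these genes changed when TβRIII was reduced.

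MMPs are zinc-dependent endopeptidases that cut collagens, proteoglycans and other matrix and surface proteins, and most are secreted or membrane-bound as inactive proenzymes. ADAMs are membrane-anchored relatives, several of which release growth factors, cytokines and receptors from the cell surface. ADAMTS proteases are secreted, bind the matrix through thrombospondin repeats and process procollagens, proteoglycans and microfibrils, whereas ADAMTSL proteins share their repeats but lack the protease domain. TIMPs are small secreted proteins that block the active site of MMPs and, for some, of ADAM and ADAMTS enzymes.

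TIMP2 and ADAMTS10 were higher in TβRIII-KD cells, and ADAMTS2 and ADAMTS6 were lower. These were the 4 members past the cutoff, an adjusted p under 0.05 in limma with an absolute log2 fold change over 0.5. No gene with an MMP, ADAM or ADAMTSL symbol passed it by its brightest cluster. The 4 genes are 5.56% of the 72 members, where 2.33% of all 18276 genes passed the same cutoff in either direction. The 2 members that rose compare with 0.772% of all genes higher at the cutoff, and the 2 that fell with 1.55% of all genes lower. Counts this small are given as a description of the members.

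**Figure D1:**
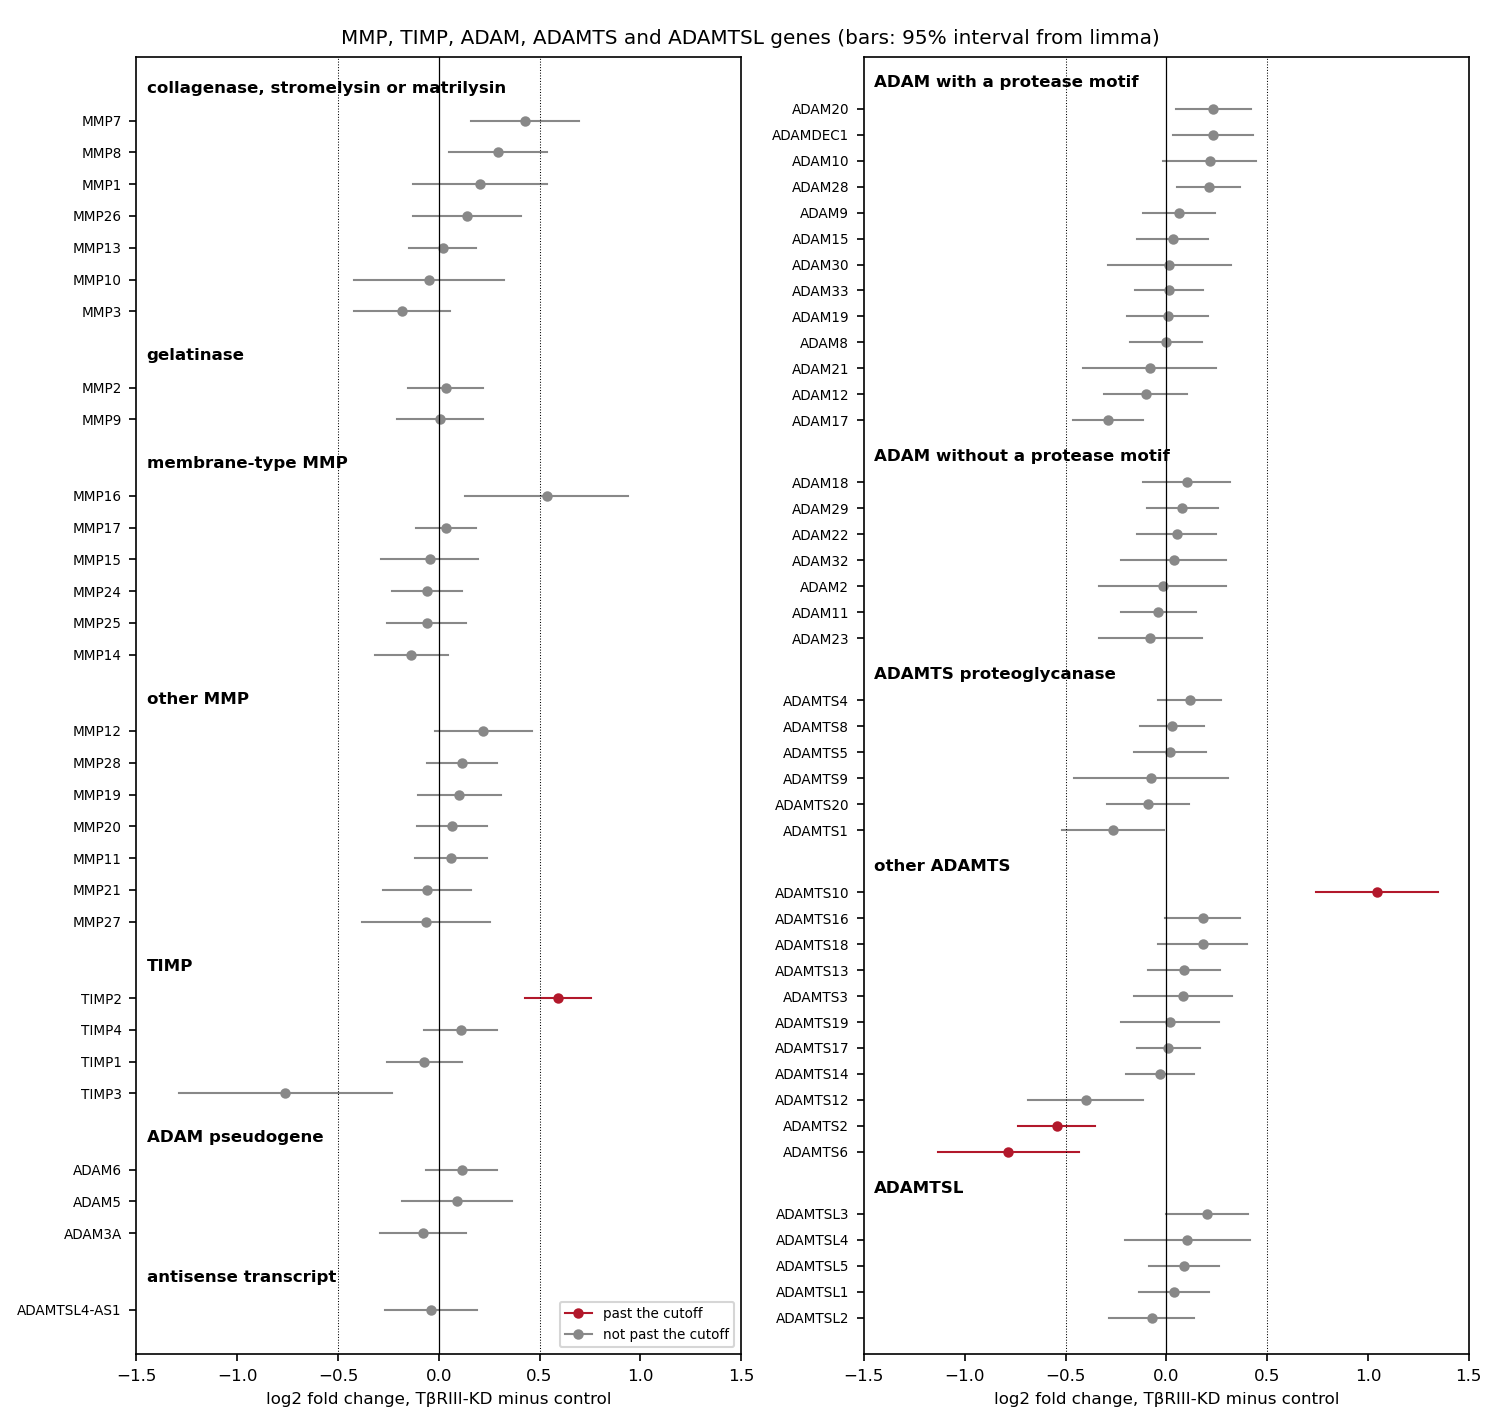
Log2 fold change (TβRIII-KD minus control, x axis) of each of the 72 members, grouped by subfamily, with 95% intervals from limma as horizontal bars, red for members past the cutoff and dotted lines at the fold limit of 0.5 in each direction. The 4 red genes lie between -0.78 (ADAMTS6) and 1.05 (ADAMTS10), and 61 of the 72 members lie within 0.25 of 0, as do 15926 of all 18276 genes.

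Upstream sequence is shown for ADAMTS10, ADAMTS6 and ADAMTS2, the members past the cutoff that were matched in the RefSeq table of promoters. TIMP2 had no entry there. Sequences are from RefSeq (GRCh38.p14), read 5′ to 3′ on the strand of the gene (minus for all 3), and cover the 250 bases before the annotated start. Capitals mark GC boxes, the letters GGGCGG on either strand, to which Sp1-type factors are known to bind, with overlapping boxes run together.
ADAMTS10, chr19:8610716-8610965: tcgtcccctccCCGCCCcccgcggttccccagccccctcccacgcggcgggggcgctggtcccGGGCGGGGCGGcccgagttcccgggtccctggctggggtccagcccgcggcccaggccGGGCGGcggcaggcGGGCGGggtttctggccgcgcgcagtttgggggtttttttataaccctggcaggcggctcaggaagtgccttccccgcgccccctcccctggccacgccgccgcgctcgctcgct
ADAMTS6, chr5:65481921-65482170: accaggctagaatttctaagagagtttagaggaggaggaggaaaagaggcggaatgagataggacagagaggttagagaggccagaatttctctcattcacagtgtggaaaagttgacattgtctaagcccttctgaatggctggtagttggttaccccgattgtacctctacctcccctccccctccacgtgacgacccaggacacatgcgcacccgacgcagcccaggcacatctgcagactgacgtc
ADAMTS2, chr5:179345462-179345711: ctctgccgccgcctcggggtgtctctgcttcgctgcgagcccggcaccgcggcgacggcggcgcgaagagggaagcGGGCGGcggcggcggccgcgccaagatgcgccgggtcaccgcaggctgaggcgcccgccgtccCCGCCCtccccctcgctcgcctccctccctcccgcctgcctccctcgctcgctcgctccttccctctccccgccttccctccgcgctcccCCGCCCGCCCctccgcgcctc

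ADAMTS10 held 5 GC boxes in this stretch, ADAMTS2 held 4 and ADAMTS6 held none. The share of G and C was 78.4% for ADAMTS10, 52.4% for ADAMTS6 and 80.0% for ADAMTS2, where the median was 68.4% over the 43 members matched in the RefSeq table and 58.0% over all its 27305 promoters. A GC box was present in 28 of the 43 members, against 57.6% of the promoters of measured genes and 42.3% of all promoters. Among ADAMTS genes 10 of 11 held one, and among MMP genes 4 of 11. The letters are a description of the sequence and say nothing of which factors bind there. Whether they bear on the fold changes was not tested.

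Among the inhibitors, TIMP2 rose while the other TIMPs did not pass the test. TIMP2 inhibits MMPs and, at low levels, forms the complex through which MMP14 activates pro-MMP2. TIMP2 signals were 11.01, 11.02 and 11.00 on TβRIII-KD arrays 1 to 3, against 10.48, 10.33 and 10.43 on control arrays 1 to 3. All 3 TβRIII-KD arrays lay above all 3 control arrays, and the TβRIII-KD arrays spanned a narrower range than the controls. The log2 fold change was 0.59 (SE 0.07, adjusted p = 0.00384 from limma), a 1.51-fold higher signal. Leaving out any 1 array kept its adjusted p between 0.00769 and 0.0217.

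TIMP3, which binds to the matrix and inhibits ADAM17 and several ADAMTS proteases, was the most variable inhibitor. Its signals were 7.75, 7.38 and 7.76 on TβRIII-KD arrays, against 7.97, 8.24 and 8.97 on control arrays. The groups did not overlap, but the control arrays spread widely, with control 3 far above control 1. Its fold change of -0.76 (SE 0.23, limma adjusted p = 0.141) did not pass the test, with a 95% interval of -1.29 to -0.23. Without control 3 it was -0.47 (adjusted p = 0.217). On the second TIMP3 cluster the TβRIII-KD arrays read 5.50, 5.45 and 6.41 and the control arrays 5.85, 5.83 and 6.56. Those groups overlapped, with array 3 the highest of each, and the fold change was -0.29 (SE 0.28, adjusted p = 0.689).

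TIMP1, a secreted inhibitor of most MMPs, averaged 13.57 ± 0.12 in TβRIII-KD and 13.64 ± 0.04 in control cells (SD, n = 3 each), a fold change of -0.07 with a 95% interval of -0.26 to 0.12. TIMP4, whose expression is best known from heart, had a fold change of 0.11 (adjusted p = 0.583). Mean TIMP4 signals were low, at 6.4 in TβRIII-KD and 6.3 in control cells. The 4 TIMP genes thus included 1 rise, and the remaining 3 had fold changes of either sign that did not pass.

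The 17 ADAMTS genes held the other 3 calls, where 2.33% of all genes passed the cutoff. None was in the proteoglycan-cleaving subgroup, whose 6 genes are too few to set it apart by this. ADAMTS10, a protease that binds fibrillin-1 and the microfibrils it forms, had the largest rise among the 72 members. ADAMTS10 read 8.62, 8.65 and 8.24 on TβRIII-KD arrays, against 7.47, 7.64 and 7.27 on control arrays. The lowest TβRIII-KD array, array 3, lay well above the highest control array, array 2. The log2 fold change was 1.05 (SE 0.13, adjusted p = 0.00476 from limma), a 2.07-fold higher signal, and leaving out any 1 array kept the adjusted p between 0.00162 and 0.0329.

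ADAMTS6, the closest relative of ADAMTS10 in the family, had the largest fall among the members. ADAMTS6 read 7.53, 7.36 and 7.78 on TβRIII-KD arrays, against 8.35, 8.05 and 8.61 on control arrays. The groups did not overlap, and in both of them array 2 was the lowest and array 3 the highest. The log2 fold change was -0.78 (SE 0.15, adjusted p = 0.0316 from limma). This call was lost without control 1 (adjusted p = 0.123), control 3 (0.0930), TβRIII-KD 1 (0.0832) or TβRIII-KD 2 (0.130), where the fold change stayed between -0.78 and -0.65.

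ADAMTS2, the enzyme that removes the amino-terminal propeptide of fibrillar procollagens, fell in TβRIII-KD cells. Its signals were 9.37, 9.40 and 9.57 on TβRIII-KD arrays, against 10.07, 9.98 and 9.92 on control arrays. Every TβRIII-KD array lay below every control array, and the log2 difference was -0.54 (SE 0.08, limma adjusted p = 0.0109). The call was lost without control 1 (adjusted p = 0.0663) or TβRIII-KD 2 (0.0533). The other procollagen N-proteinases, ADAMTS3 and ADAMTS14, had fold changes of 0.08 (adjusted p = 0.783) and -0.03 (adjusted p = 0.899).

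**Figure D2:**
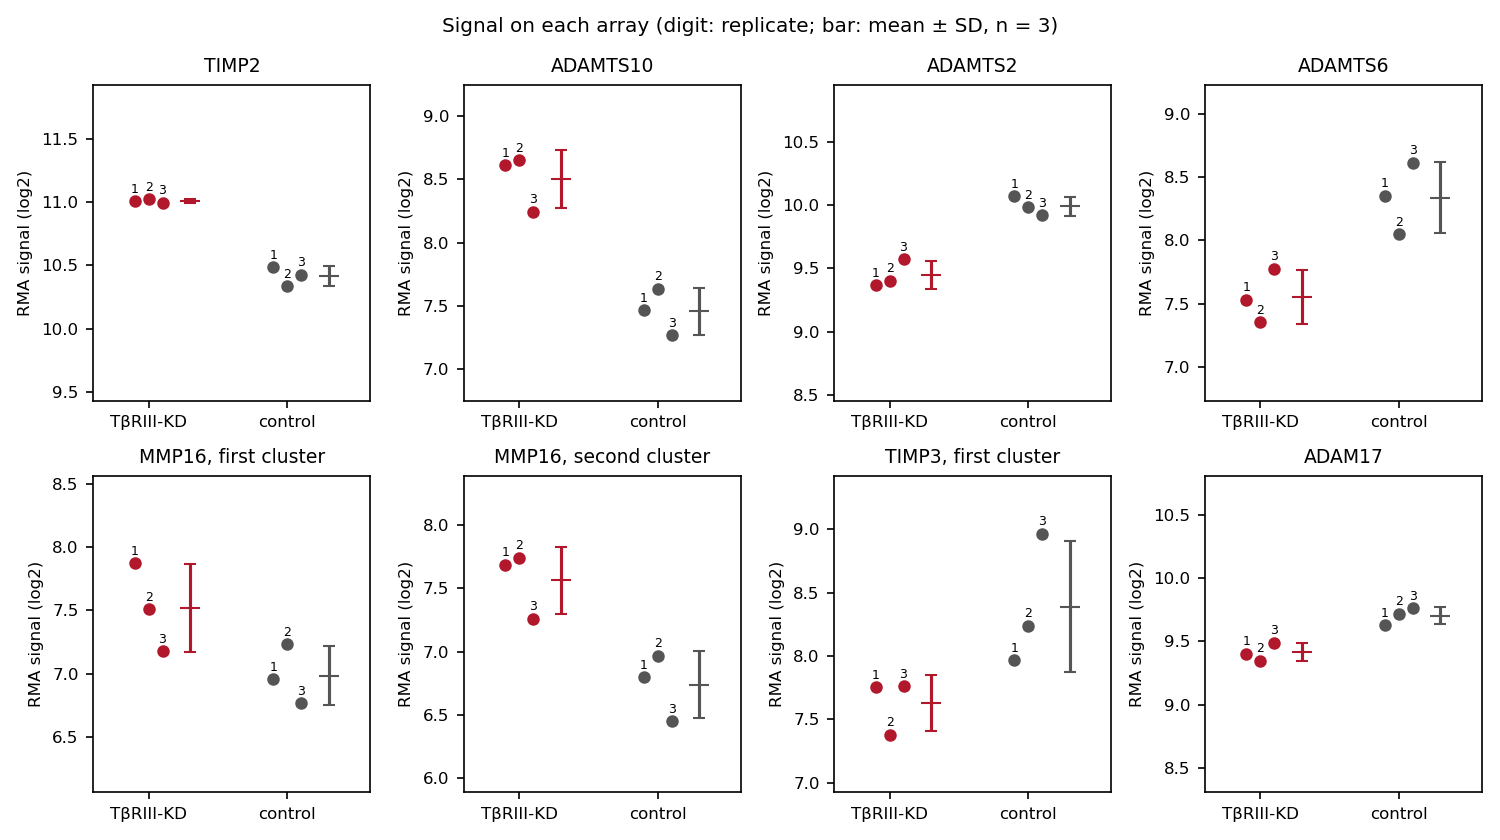
RMA signal (log2, y axis) on each array for the 4 members past the cutoff, both MMP16 clusters, the first TIMP3 cluster and ADAM17, with TβRIII-KD in red on the left and control in grey on the right, 1 dot per array with its replicate number, and a bar for mean ± SD (n = 3). All y axes span the same number of log2 units, and only the first MMP16 cluster shows overlapping groups.

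ADAMTS12, which cleaves cartilage oligomeric matrix protein, read 8.80, 8.39 and 8.29 on TβRIII-KD arrays, against 8.91, 8.87 and 8.89 on control arrays. Its controls agreed closely and its TβRIII-KD arrays lay below them, with array 1 nearest. The fold change was -0.40 (SE 0.12, adjusted p = 0.149 from limma). The 7 remaining ADAMTS genes outside the proteoglycan-cleaving subgroup, among them the von Willebrand factor protease ADAMTS13, had fold changes within 0.25 of 0.

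The 6 proteoglycanases, which cut aggrecan and versican, had a median log2 fold change of -0.03 and none passed the cutoff. ADAMTS1 read 7.39, 7.22 and 7.67 on TβRIII-KD arrays, against 7.71, 7.65 and 7.72 on control arrays. TβRIII-KD 3 overlapped the controls, and the fold change was -0.27 (SE 0.11, adjusted p = 0.304 from limma). Without TβRIII-KD 3 it was -0.39 (adjusted p = 0.0498). ADAMTS4, an aggrecanase, had a fold change of 0.12 (adjusted p = 0.491), with non-overlapping arrays that were higher in TβRIII-KD. Mean ADAMTS4 signals were low, at 6.38 in TβRIII-KD and 6.27 in control cells.

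Of the 5 ADAMTSL genes, 4 had fold changes above 0, as did 9955 of all 18276 genes, and none passed the cutoff. ADAMTSL3 had a fold change of 0.20 (adjusted p = 0.338) and ADAMTSL5, a microfibril-associated protein, one of 0.09 (adjusted p = 0.659). Mean ADAMTSL3 signals were low, at 5.66 in TβRIII-KD and 5.46 in control cells. For ADAMTSL1 the 2 clusters gave 0.04 (adjusted p = 0.866) and 0.31 (adjusted p = 0.106), the second with every TβRIII-KD array above every control array. ADAMTSL4-AS1, an antisense transcript of ADAMTSL4, had a fold change of -0.04 (adjusted p = 0.905).

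No MMP passed the cutoff by its brightest cluster, and 14 of the 22 MMP genes had fold changes above 0, as did 9955 of all 18276 genes. The gelatinases, which degrade denatured collagen and basement membrane collagen, had fold changes close to 0. MMP2 averaged 12.04 ± 0.10 in TβRIII-KD and 12.00 ± 0.07 in control cells (SD, n = 3 each), a fold change of 0.03 with a 95% interval of -0.15 to 0.22. MMP9 averaged 6.58 ± 0.15 in TβRIII-KD and 6.57 ± 0.08 in control cells, a fold change of 0.01 with an interval of -0.21 to 0.22. Both intervals lie inside the fold limit of 0.5 in either direction. The MMP9 signals lay below the array medians of 7.67 to 7.71. Whether MMP9 was detected above background was not tested, so its narrow interval does not show a steady level of expression.

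MMP16 (MT3-MMP), a membrane-type enzyme able to activate pro-MMP2, was the MMP with the largest fold change, and its call depended on the cluster. On the brighter cluster the TβRIII-KD arrays read 7.87, 7.51 and 7.18 and the control arrays 6.95, 7.23 and 6.77. TβRIII-KD 3 lay below control 2, so the groups overlapped, and the fold change of 0.54 (SE 0.18, limma adjusted p = 0.177) did not pass. On the second cluster the TβRIII-KD arrays read 7.69, 7.74 and 7.26 and the control arrays 6.80, 6.97 and 6.45. Here every TβRIII-KD array lay above every control array, and the fold change of 0.82 (SE 0.16, limma adjusted p = 0.0316) was past the cutoff. With the mean of both clusters the fold change was 0.68 (adjusted p = 0.0598). The second cluster lost its call without control 1 (adjusted p = 0.105), control 3 (0.0900), TβRIII-KD 1 (0.0895) or TβRIII-KD 2 (0.134), and the first gained one without TβRIII-KD 3 (fold change 0.71, adjusted p = 0.0453).

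The other 5 membrane-type MMPs had fold changes between -0.14 and 0.04. MMP14 (MT1-MMP), a collagenase of the cell surface and the main activator of pro-MMP2, read 7.80, 7.77 and 7.86 on TβRIII-KD arrays, against 7.91, 7.86 and 8.06 on control arrays. The highest TβRIII-KD array and the lowest control array differed by less than 0.01, and the fold change was -0.14 (SE 0.08, adjusted p = 0.481 from limma).

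Collagenases, stromelysins and matrilysins had a median fold change of 0.14 over 7 genes, with none past the cutoff. MMP7, the small matrilysin of epithelia, read 7.44, 7.06 and 7.26 on TβRIII-KD arrays, against 6.70, 7.00 and 6.77 on control arrays. The groups did not overlap, and the fold change of 0.43 (SE 0.12, limma adjusted p = 0.104) did not pass. MMP8, the neutrophil collagenase, had a fold change of 0.29 (adjusted p = 0.219), also without overlap. Its mean signal was low, at 3.90 in TβRIII-KD and 3.61 in control cells, where array medians were 7.67 to 7.71. The interstitial collagenase MMP1 had a fold change of 0.21 (adjusted p = 0.571), of which 0.04 was left without TβRIII-KD 1. Stromelysin MMP3 had a fold change of -0.18 (adjusted p = 0.480) and collagenase MMP13 one of 0.02 (adjusted p = 0.940). Among the other MMPs the smallest p-values were those of the macrophage elastase MMP12, at 0.22 (adjusted p = 0.375), and of epilysin, MMP28, at 0.11 (adjusted p = 0.550). Mean signals in TβRIII-KD and control cells were also low for MMP1 (6.44 and 6.23), MMP3 (5.35 and 5.53), MMP13 (4.98 and 4.96) and MMP12 (4.51 and 4.29).

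MMP7 belongs to a run of 9 neighbouring MMP genes on chromosome 11, in the order MMP7, MMP20, MMP27, MMP8, MMP10, MMP1, MMP3, MMP12 and MMP13. Of these, 6 had fold changes above 0 and 3 below, with a median of 0.07 and none past the cutoff. MMP7 was also the 1 member of the 43 matched whose 250 upstream bases held the AP-1 motif TGAGTCA (either strand). The motif was present in 3.07% of the promoters of measured genes and in 4.16% of all promoters. Only 11 of the 22 MMP genes were matched, so the unmatched MMP genes were not searched for it. The motif is shown because AP-1 is a known regulator of MMP genes, in capitals in a window of 30 bases from RefSeq (GRCh38.p14, minus strand).
MMP7, chr11:102530797-102530826: aaaacactcaaaTGAGTCAcctatttccac
The motif starts 67 bases before the annotated start of MMP7. A TATA box was searched as TATAAA on the strand of the gene. It was found in 6 of the 11 matched MMP promoters (MMP7, MMP8, MMP10, MMP20, MMP21 and MMP26). Of the 43 members 7 held it, with ADAMTSL2 as the 1 outside the MMP genes. The shares were 6.07% of the promoters of measured genes and 7.17% of all promoters.

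None of the 23 ADAM genes passed the cutoff, and 22 of them had fold changes within 0.25 of 0. The exception was ADAM17 (TACE), the sheddase that releases TNF and EGF receptor ligands. ADAM17 read 9.40, 9.35 and 9.49 on TβRIII-KD arrays, against 9.63, 9.72 and 9.76 on control arrays. Every TβRIII-KD array lay below every control array, and the fold change of -0.29 (SE 0.08, limma adjusted p = 0.0866) did not pass. ADAM10, which sheds Notch and cadherins, read 10.99, 11.04 and 10.72 on TβRIII-KD arrays, against 10.74, 10.77 and 10.59 on control arrays. TβRIII-KD 3 fell below controls 1 and 2, and the fold change was 0.22 (SE 0.10, adjusted p = 0.366 from limma). The 95% intervals were -0.46 to -0.12 for ADAM17 and -0.02 to 0.45 for ADAM10.

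ADAM28, a protease first described in lymphocytes, had a fold change of 0.21 (adjusted p = 0.164) with higher signal on every TβRIII-KD array. ADAM12, a secreted or membrane-bound protease of mesenchymal tissue, had one of -0.10 (adjusted p = 0.660), and ADAM15 one of 0.03 (adjusted p = 0.900). The 7 ADAMs without a protease motif, which act in adhesion and in sperm, lay between -0.08 and 0.10. ADAM18 (0.10, adjusted p = 0.682) and ADAM29 (0.08, adjusted p = 0.696), both known from testis, had the smallest p-values among them. Mean signals in TβRIII-KD and control cells were low for ADAM28 (5.72 and 5.52), ADAM18 (4.38 and 4.28) and ADAM29 (4.56 and 4.48). The 3 pseudogenes ADAM3A, ADAM5 and ADAM6 lay between -0.08 and 0.11.

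Across all 72 members the median log2 fold change was 0.03, against 0.01 over all genes, and the median absolute fold change was 0.08, against 0.09. Fold changes were above 0 in 45 of the 72 members and in 9955 of all 18276 genes. They lay within 0.25 of 0 in 61 members and in 15926 of all genes. Arrays of the 2 groups did not overlap for 16 members, or 22.2%, where 21.3% of all genes had no overlap. In 10 members (13.9%) the TβRIII-KD arrays were the higher ones, against 10.2% of all genes, and in 6 (8.33%) they were the lower ones, against 11.0%. An unadjusted p under 0.05 was reached by 14 members (19.4%), against 15.6% of all genes. By the counts of arrays without overlap and of unadjusted p-values, the members lay near the background of the arrays. Only 20 of the 72 members had a mean signal at or above the median of all clusters, and the 4 genes past the cutoff were among them. The 2 clusters with several symbols had fold changes of 0.05 (MMP23A with MMP23B, adjusted p = 0.837) and -0.22 (ADAM21 with ADAM21P1, adjusted p = 0.504).

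The genes that lie beside the 4 called members were read from the same fit. ADAMTS6 was flanked on one side by 5 measured genes that were all lower in TβRIII-KD on every array. RNF180 had a fold change of -1.12 (adjusted p = 0.00502), RGS7BP one of -2.91 (adjusted p = 7.64e-05), SHISAL2B one of -3.17 (adjusted p = 8.61e-06) and CWC27 one of -0.51 (adjusted p = 0.00755), while SREK1IP1 (-0.45, adjusted p = 0.145) did not pass. On the other side CENPK, PPWD1, TRAPPC13, SGTB and NLN lay between -0.20 and 0.19, and none passed. Whether the number of copies of this stretch differs between TβRIII-KD and control cells was not tested, so the fall of ADAMTS6 cannot be told apart from a change that it shares with its neighbours. Of the 10 genes around TIMP2 and the 10 around ADAMTS10 none passed the cutoff, and of the 10 around ADAMTS2 only MGAT4B did, with a fold change of 0.61 (adjusted p = 0.0106).

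**Figure D3:**
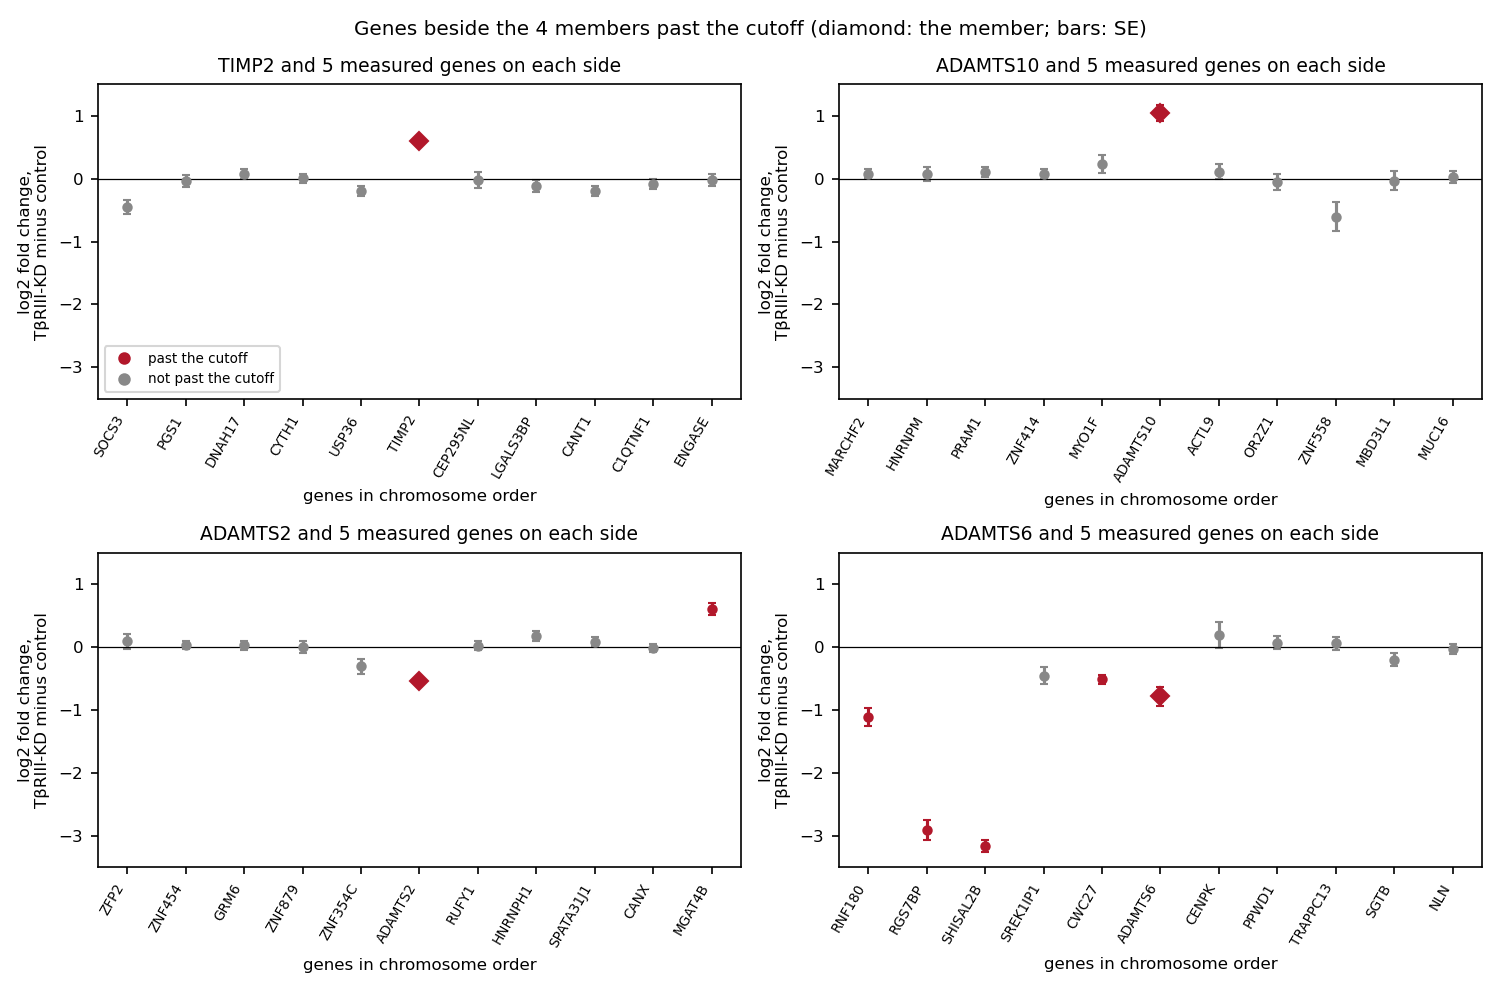
Log2 fold change (TβRIII-KD minus control, y axis, bars are limma's SE) of each of the 4 members past the cutoff (diamonds) and of 5 measured genes on each side in chromosome order (circles), red when past the cutoff. Beside ADAMTS6 the 5 genes to the left lie between -3.17 and -0.45 and the 5 to the right between -0.20 and 0.19.

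Partners, substrates and regulators of these enzymes were taken from lists of known roles, and the counts below stand beside the same shares of all genes past the cutoff, 2.33% in either direction, 0.772% higher and 1.55% lower. Among 11 maturation factors and other partners of ADAM10 and ADAM17, CD9, a tetraspanin that associates with ADAM17, rose. CD9 is listed with the other partners, not as a maturation factor. CD9 read 9.41, 9.19 and 9.07 on TβRIII-KD arrays, against 8.08, 8.11 and 7.94 on control arrays. The groups lay far apart, with a fold change of 1.18 (SE 0.10, limma adjusted p = 0.000757). TSPAN14, a tetraspanin that guides ADAM10 to the surface and is named here after its value was seen, had an adjusted p of 0.0217 with a fold change of 0.46, under the fold limit. Its adjusted p was above 0.05 without control 1, control 3, TβRIII-KD 1 or TβRIII-KD 2 (up to 0.108), and it passed the cutoff without control 2 (0.53, adjusted p = 0.0232). TSPAN15, another tetraspanin partner of ADAM10, had a fold change of -0.45 (adjusted p = 0.181) with overlapping arrays.

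Of 26 measured membrane proteins shed by ADAM10 or ADAM17, 2 rose and 2 fell at the cutoff. The ErbB ligand NRG1 had a fold change of 0.85 (adjusted p = 0.0100) and the TNF receptor TNFRSF1B one of 0.52 (adjusted p = 0.0139). The receptor NOTCH2 fell by 0.62 (adjusted p = 0.0258) and the adhesion molecule L1CAM by 0.96 (adjusted p = 0.0316) on the log2 scale. The list's median fold change was 0.03. NRG1 kept an adjusted p of at most 0.0459 when any 1 array was left out. TNFRSF1B lost its call without control 1 (adjusted p = 0.0755) or control 3 (0.0659), and without TβRIII-KD 1, where its fold change of 0.44 was under the fold limit. NOTCH2 lost it without control 1, control 3, TβRIII-KD 1 or TβRIII-KD 2 (up to 0.110), and L1CAM without any 1 array other than control 2 (up to 0.134).

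Of 17 substrates and binding partners of ADAMTS and ADAMTSL proteins only COL3A1, the type III procollagen chain, passed the cutoff. COL3A1 read 8.85, 8.95 and 9.30 on TβRIII-KD arrays, against 8.21, 8.40 and 8.18 on control arrays. The groups did not overlap, and the fold change was 0.77 (SE 0.12, adjusted p = 0.0128 from limma). The call was lost without control 1 (adjusted p = 0.0711) or control 3 (0.0555). In a list of 16 genes, other secreted or membrane metalloproteinases together with the ADAMTS-like gene THSD4, which lacks a protease domain, 2 fell, the prohormone-processing carboxypeptidase CPE by 0.99 (adjusted p = 0.0194) and the endopeptidase PHEX by 0.63 (adjusted p = 0.0497) on the log2 scale. CPE lost its call without control 1 (adjusted p = 0.0851), control 3 (0.0659) or TβRIII-KD 2 (0.0582), and PHEX without any 1 array other than TβRIII-KD 3 (up to 0.170).

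None of 12 activators and surface regulators passed the cutoff, and the smallest p was that of the plasma protease inhibitor A2M, with a fold change of -0.43 (adjusted p = 0.0533). Among 14 transcription factors known to bind metalloproteinase promoters, the AP-1 and ETS factors and RUNX2, a Runt-domain factor, none passed both limits, with a median fold change of -0.18. The AP-1 subunit FOSL1 had a fold change of 0.39 (adjusted p = 0.0300), and JUN (-0.47, adjusted p = 0.0320) and ETS1 (-0.50, adjusted p = 0.0316), both named after their values were seen, had values below 0. All 3 were under the fold limit of 0.5, and each had an adjusted p above 0.05 in 5 of the 6 fits that left out 1 array. In the other fit, without TβRIII-KD 3, JUN (-0.54, adjusted p = 0.0169) and ETS1 (-0.59, adjusted p = 0.00978) passed the cutoff and FOSL1 (0.42, adjusted p = 0.0328) stayed under the fold limit.

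**Figure D4:**
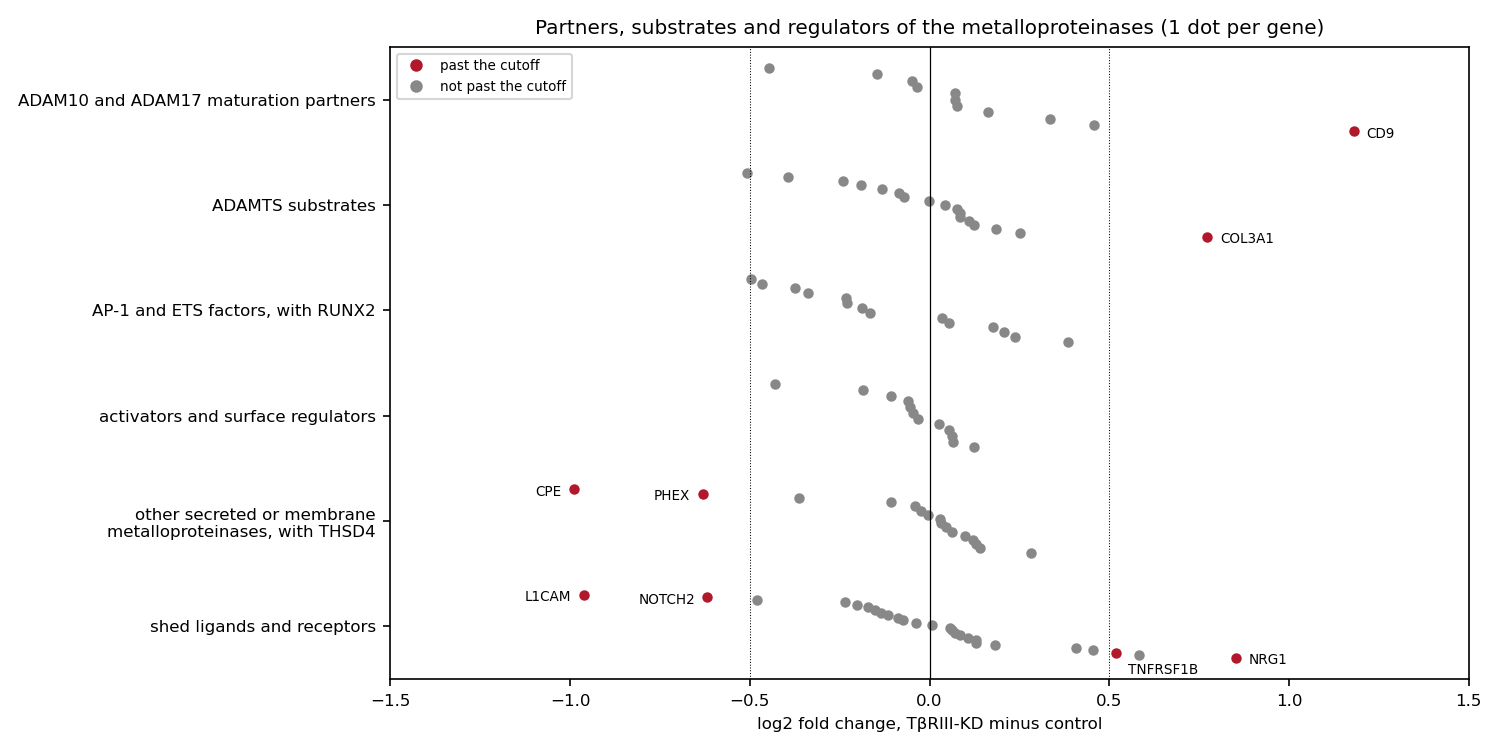
Log2 fold change (TβRIII-KD minus control, x axis) of each measured gene in 6 lists of partners, substrates and regulators, 1 dot per gene, with red dots and names for genes past the cutoff and dotted lines at the fold limit of 0.5 in each direction. CD9, COL3A1, NRG1 and TNFRSF1B lie to the right, and CPE, PHEX, L1CAM and NOTCH2 to the left.

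The knockdown and the arrays as a whole give the frame for these values. TGFBR3 itself read 9.72, 10.01 and 10.16 on TβRIII-KD arrays, against 10.81, 10.89 and 10.56 on control arrays, a fold change of -0.79 (adjusted p = 0.0145 from limma). Every TβRIII-KD array was lower, although the call was lost without control 1 (0.0770), control 2 (0.0554) or TβRIII-KD 2 (0.0625). Array medians lay between 7.67 and 7.71, and correlations across clusters were 0.992 to 0.994 within TβRIII-KD, 0.995 to 0.996 within controls and 0.986 to 0.992 between the groups. TβRIII-KD 3 stood apart on the second principal component (21.9% of the variance), and without it TIMP2 (0.60), ADAMTS10 (1.18), ADAMTS2 (-0.61) and ADAMTS6 (-0.89) all stayed past the cutoff. The mean log2 signal of 8 mesenchymal markers was 11.27 to 11.41 on TβRIII-KD arrays and 11.36 to 11.43 on control arrays, with none past the cutoff. Among them SPARC had a fold change of -0.45 (adjusted p = 0.0189), under the fold limit, while AXL (0.18) and TWIST1 (0.20) were higher on every TβRIII-KD array without passing the test. Of 9 luminal markers GATA3 passed the cutoff (fold change 0.68, adjusted p = 0.00858), whereas KRT8 (-0.36, adjusted p = 0.0871) and KRT18 (-0.38, adjusted p = 0.217) were lower on every TβRIII-KD array without passing. Of 4 leukocyte and 5 endothelial markers none did. The part of GATA3, SPARC or other cell-state genes in the changes of the members was not tested. In bulk RNA, a change in the number of cells that express a gene and a change per cell cannot be told apart.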

How the data were processed

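RNA of 3 TβRIII-KD and 3 control samples was measured on 1 Affymetrix Human Gene array each. Deposited log2 values were used, which the authors had made by RMA with oligo under R 3.0.1, a method that subtracts background, equalizes array distributions and condenses probes to clusters by median polish. Of 22148 clusters, 19129 carry 1 symbol by the platform annotation, and 19099 of these have a gene ID in RefSeq (GRCh38.p14), which also gave gene order and sequences.

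TβRIII-KD was compared with control over all clusters with limma 3.58.1 in R 4.3.3 (linear model, empirical Bayes, two-sided, Benjamini-Hochberg over all clusters), which was also tested on simulated data. Genes were called at an adjusted p under 0.05 with a log2 fold change beyond 0.5 in either direction. SE is limma's moderated standard error. The sources do not say that arrays of a group came from separate cultures, so p-values reflect the spread between arrays (possibly technical), and precision is limited by having 3 per group. Replicate numbers were not taken to pair arrays.

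Members, subfamilies and lists were chosen with earlier results of these data known. Genes named are TGFBR3, members past the cutoff, the pair with the smallest p per subfamily, the TIMPs, 10 members with known roles, and for each list the genes past the cutoff or the one with the smallest p. Genes beside called members, ADAMTS12 and others with values of their own were added after the values were seen.

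Alternatives were trended moderation, robust moderation, array weights, the methods' t-test, clusters at or above the median signal, clusters with 1 symbol, median centring, repeated quantile normalization, a replicate block, the mean of a gene's clusters, other fold limits and each array left out in turn.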

Additional observations from a re-analysis of the deposited data

How the results depend on the processing

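TIMP2 and ADAMTS10 were the members called higher in every limma fit that kept the fold limit of 0.5. With 1 array left out the count of higher members was 2 to 3, where MMP16 joined without TβRIII-KD 3, and that of lower members was 0 to 2. It was 0 without control 1 or without TβRIII-KD 2, and 1 (ADAMTS2) without control 3. Without TβRIII-KD 1, ADAMTS12 passed in place of ADAMTS6. At a fold limit of 1 the counts were 1 higher and 0 lower. The paper names limma for differential expression on these arrays, and the unpaired t-test in its general statistics section. The methods' t-test left 0 higher and 0 lower members after adjustment, where the same 4 genes had an unadjusted p under 0.05 with the fold limit, and 10 of 72 members an unadjusted p under 0.05. The adjusted p was then 0.0612 for TIMP2, 0.144 for ADAMTS10, 0.123 for ADAMTS2 and 0.262 for ADAMTS6. Over all genes, 425 passed the cutoff, 14 by the methods' t-test, 280 among clusters at or above the median signal, and 258 to 546 with 1 array left out.

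With the replicate block, 2 members were higher and 3 lower, as TIMP3 joined (adjusted p = 0.0414), and 520 of all genes passed. The block lowered limma's adjusted p for ADAMTS6 (0.00158), ADAMTS10 (0.00043) and the second MMP16 cluster (0.00113). It raised the adjusted p for TIMP2 (0.00587) and ADAMTS2 (0.0169). The correlations of same-numbered arrays' deviations were -0.06, 0.11 and 0.31, and TβRIII-KD 1 correlated best with control 2 (0.34), so the arrays share a number and were not treated as pairs.

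Of 44 named genes or clusters, 40 kept their sign in all fits. MMP9 changed it with array weights (-0.0063), with repeated quantile normalization (-0.0143) and with 1 array left out (-0.0597 to 0.0873), and MMP13 with repeated quantile normalization (-0.0219) and with 1 array left out (-0.0127 to 0.0562). MMP2 (-0.0064 to 0.0937) and ADAM15 (-0.0126 to 0.0712) changed it only with 1 array left out. These genes had fold changes near 0. The causes were not tested. PHEX also missed the threshold with robust moderation, median centring and repeated quantile normalization. Signal over background was not analysed here.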
